A study of Mus musculus with 16 samples.

Results

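Transcripts annotated as targets of nonsense-mediated RNA decay (NMD) were followed in 2 brain regions of adult mice without Upf3b, the frontal cortex and the cerebellum. The members are all transcripts of the deposited matrices whose GENCODE vM39 type is nonsense_mediated_decay, which were 7199 of 142435 transcripts (5.05%). They belong to 4599 genes, of which 4509 also have a protein_coding transcript, so that the fraction of a gene's counts on its NMD transcripts (the NMD share) can be set against its productive messages. Of the 7199 NMD transcripts, 5726 had at least 1 count in frontal cortex and 5615 in cerebellum, and 2502 and 2774 passed the filter on low counts. The 1411 and 1515 NMD transcripts at 0 in every deep library of frontal cortex and cerebellum are part of the count of members but carry no value.

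Total RNA depleted of rRNA was sequenced from both regions of adult mice, 4 of them Upf3b-KO and 4 Ctrl from the same litters. Each region and genotype (FC Ctrl, FC Upf3b-KO, Cere Ctrl, Cere Upf3b-KO) had 4 libraries. The knockout is constitutive, so all cells of the animal lacked Upf3b throughout life, and the samples are bulk tissue, in which fewer cells of a type and less RNA per cell cannot be told apart. The regions thus share mice, but the labels do not tie libraries to mice, so the test between regions treated the libraries as independent and p-values measure only the spread between these libraries, which may be technical. Upf3b-KO library 1 of the cerebellum held 64981 counts and was left out, while the 15 other libraries held 27660078 to 35238677 counts, so n is 3 for Cere Upf3b-KO and 4 for the other groups.

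The labels were checked first. Upf3b was at 14.2 to 15.7 CPM (counts scaled to equal library totals) in FC Ctrl and at 0.229 to 0.857 in FC Upf3b-KO, and at 20.9 to 23.6 CPM in Cere Ctrl and 0.617 to 0.965 in the deep Cere Upf3b-KO libraries. Markers of other cells or neighbouring tissue also moved with the genotype. The summed level of 6 choroid plexus genes was 20.8 to 22.1 CPM in FC Ctrl and 2156 to 2209 in FC Upf3b-KO, and 25.04 to 28.8 against 1369 to 1391 CPM in cerebellum. That of 6 oligodendrocyte genes was 7556 to 7641 against 10222 to 10296 CPM in frontal cortex and 6208 to 6328 against 14390 to 14493 CPM in cerebellum, with all 6 genes higher in every Upf3b-KO library of both regions. In cerebellum, 6 granule and Purkinje cell genes summed to 4249 to 4337 CPM in Ctrl and 1820 to 1838 in Upf3b-KO, and all 6 were lower. In frontal cortex, 7 striatal genes summed to 145 to 157 CPM in Ctrl and 746 to 759 in Upf3b-KO, and 10 male germ cell genes to 23.9 to 27.4 against 178 to 189 CPM. In cerebellum both sums were lower in Upf3b-KO, 368 to 380 against 317 to 328 CPM for the striatal genes and 30.3 to 31.9 against 22.9 to 23.5 CPM for the germ cell genes. By gene, however, 3 of the 7 striatal genes and 7 of the 10 germ cell genes were higher in every deep Upf3b-KO library of the cerebellum, and 1 of each list was lower in every one. The summed level of 4 frontal cortex neuron genes was 1478 to 1537 CPM in FC Ctrl and 1381 to 1397 in FC Upf3b-KO, with 3 of the 4 lower in every Upf3b-KO library. No marker in any of these lists was at 0 in a group. The part of these markers' cells in the results on NMD transcripts was not tested.

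NMD degrades messages on which a ribosome stops well upstream of an exon junction, because the exon junction complex that marks the junction then stays on the RNA downstream of the stop codon. UPF3B links that complex to the decay factor UPF2. Many genes for splicing factors carry poison exons, conserved cassette exons with an in-frame stop codon, whose inclusion (or, in some genes, the skipping of a coding exon) sends part of the gene's output to NMD and lowers the amount of productive message.

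The stop codons that make such isoforms NMD targets are shown for 11 of the genes whose NMD share changed in both regions, since they are what separates the counted isoform from its productive partner. Each sequence is the last 30 bases up to and including the stop codon of the gene's main NMD transcript, read 5′ to 3′ along the spliced RNA of GRCm39 with GENCODE vM39, and the capitals mark the stop codon. In the first 6 the stop lies inside an exon that the main protein_coding transcript lacks, in the next 2 an included exon shifts the frame into a later stop, and in the last 3 the frame is shifted by a skipped exon.
Srsf3-201: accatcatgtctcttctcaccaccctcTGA
Tra2b-206: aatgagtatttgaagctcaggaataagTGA
Rbm39-225: tttgattccagtgtgaactgtcaatcaTAA
Hnrnpl-213: tctttcagaactgtgctaactcactgtTGA
Tmem183a-205: actcccagcacactgaagaattccaaaTAG
Sod2-202: acaggcctgtgttcactctgctctttcTAA
Brd2-207: catccccagaggattatcacaaaattaTAA
Luc7l-206: acatccttgctgggacgcgcatggattTAG
Hnrnph3-204: agcgaccgggaccatatgatagaccaaTAG
Hnrnpk-230: cgtacagaccatactgagtatcagtgcTGA
Snrpa1-201: gactttcagaaagtgaaactcaaatttTAA

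The poison exon of Srsf3 (ENSMUST00000037776, plus strand) is 456 bases long at chr17:29258428-29258883, with the stop codon at chr17:29258459-29258461 and 3 exon junctions after it. That of Tra2b (ENSMUST00000162413, minus strand) is 276 bases long at chr16:22077736-22078011, with the stop at chr16:22077931-22077933 and 8 junctions after it. The included exons of Rbm39 (ENSMUST00000155837, minus strand, chr2:156020800-156020872), Hnrnpl (ENSMUST00000174882, plus strand, chr7:28516760-28516829), Tmem183a (ENSMUST00000191237, minus strand, chr1:134280713-134280875) and Sod2 (ENSMUST00000232726, plus strand, chr17:13253767-13253878) are 73, 70, 163 and 112 bases long. In Brd2 (ENSMUST00000154232, minus strand) the included exon of 92 bases is at chr17:34335572-34335663, and in Luc7l (ENSMUST00000148894, plus strand) one of 71 bases is at chr17:26472948-26473018. The skipped exons are 139 bases in Hnrnph3 (ENSMUST00000140743, minus strand, chr10:62854539-62854677), 44 bases in Hnrnpk (ENSMUST00000225031, minus strand, chr13:58545567-58545610) and 80 bases in Snrpa1 (ENSMUST00000032723, plus strand, chr7:65719867-65719946). In 9 of these 11 genes the transcript shown held over 80% of the gene's NMD counts, and the exceptions were Rbm39 (49.3%, 8 NMD transcripts) and Hnrnpk (61.6%, 3 NMD transcripts).

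How much of the output of these genes lay on NMD transcripts was examined next. Over all genes with counts on an NMD and on a protein_coding transcript (3775 in frontal cortex, 3706 in cerebellum), the counts on NMD transcripts were divided by all counts of the genes (the pooled NMD share). In frontal cortex it was 10.88, 10.96, 10.94 and 11.04% in the 4 Ctrl libraries and 11.74, 11.76, 11.82 and 11.77% in the 4 Upf3b-KO libraries. In cerebellum it was 10.23, 10.22, 10.18 and 10.28% in Ctrl and 11.81, 11.73 and 11.76% in the 3 deep Upf3b-KO libraries. The genotypes did not overlap in either region, and every Upf3b-KO library was higher.

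The pooled NMD share rose in frontal cortex from 10.96 ± 0.063 (SD, n = 4) to 11.77 ± 0.033% (SD, n = 4), by 0.816 percentage points (two-sided exact permutation test over libraries, p = 0.0286, the smallest that 70 arrangements allow). In cerebellum it was 10.23 ± 0.043 (SD, n = 4) in Ctrl and 11.76 ± 0.039% (SD, n = 3) in Upf3b-KO, a difference of 1.54 points (two-sided exact permutation test, p = 0.0571, the smallest that 35 arrangements allow, so this design cannot reach 0.05). The regions are not compared by a test here, since the order of Cere Ctrl and FC Ctrl turned with the genes included. Cere Ctrl lay 0.727 points below FC Ctrl over all genes, but above it without the abundant genes Lars2 and Mobp (7.87 against 7.29%). As a share of all counts of a library, NMD transcripts took 2.69 to 2.73% in FC Ctrl and 2.98 to 3.003% in FC Upf3b-KO, and 2.59 to 2.61% against 3.01 to 3.03% in cerebellum. The NMD transcripts detected numbered 3381 to 3423 in FC Ctrl against 3788 to 3815 in FC Upf3b-KO, and 3435 to 3621 in Cere Ctrl against 3801 to 3894 in Cere Upf3b-KO. Detection over all transcripts was not counted, so these numbers are a description and no result about NMD transcripts in particular.

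A few abundant genes carried much of the pooled share, and they changed in total level rather than in their isoforms. Split by gene, 0.639 of the points gained in frontal cortex and 0.633 of those in cerebellum came from higher NMD shares within genes, whereas 0.177 and 0.900 came from genes that took another part of the counts. Mobp and Lars2 are named because of their values. Mobp, a myelin gene of oligodendrocytes whose annotated NMD transcript ends at the usual stop codon with a junction in its 3′ UTR, added 0.285 points in frontal cortex and 0.781 in cerebellum, of which 0.0137 and 0.0270 were within the gene. Its NMD transcript (ENSMUST00000174193) had means of 1441 CPM in FC Ctrl, 2199 in FC Upf3b-KO, 959 in Cere Ctrl and 2959 in Cere Upf3b-KO, and the oligodendrocyte markers given above moved the same way. Lars2, the mitochondrial leucyl-tRNA synthetase, held the largest part of the pooled share, 3.37 points in FC Ctrl and 2.18 in Cere Ctrl, and changed it by −0.353 in frontal cortex and 0.204 in cerebellum. With the weight of each gene held at its mean over libraries, the difference was 0.639 points in frontal cortex and 0.632 in cerebellum. Leaving out Lars2 and Mobp gave 0.917 and 0.653. In genes whose total changed by less than 0.32 on the log2 scale it was 0.369 points in frontal cortex and 0.996 in cerebellum, and all of these differences had the smallest p of their exact permutation test, 0.0286 and 0.0571.

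**Figure D1:**
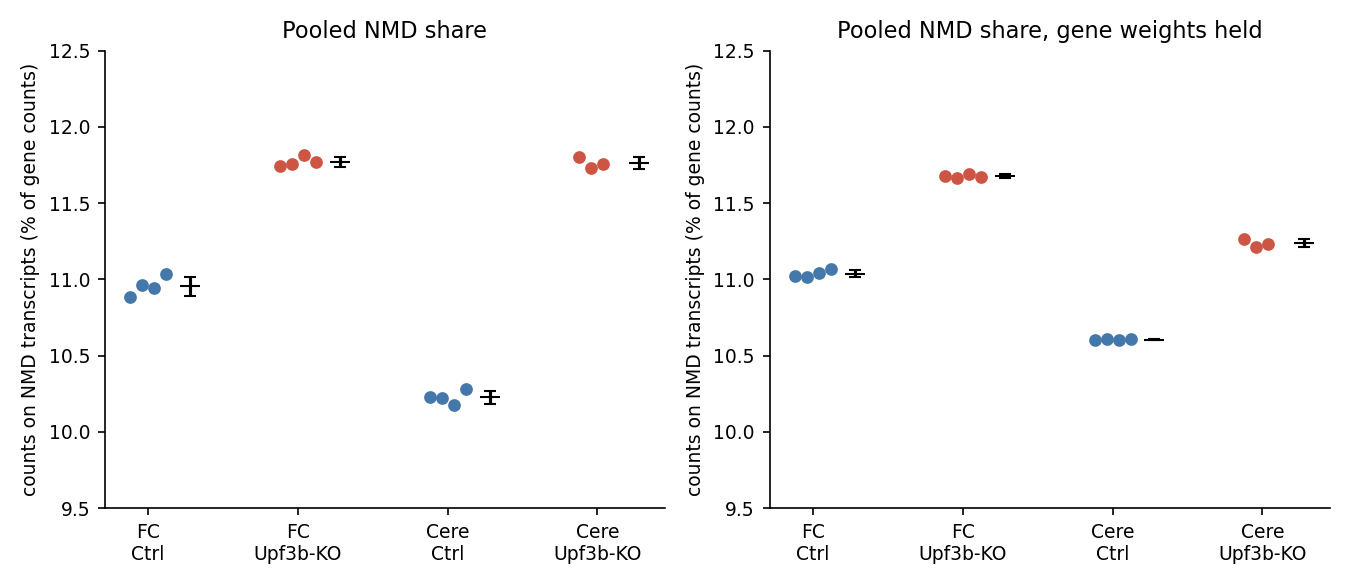
Pooled NMD share (y axis, percent of gene counts, axis not starting at 0) in each library of the 4 groups, as measured (left) and with gene weights held at their mean over libraries (right). Points are libraries (blue Ctrl, red Upf3b-KO), bars the mean and SD beside them. Every Upf3b-KO library lies above every Ctrl library of its region, and the gain in cerebellum shrinks from 1.54 to 0.632 points when gene weights are held.

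Higher NMD shares were found in many genes and the gain was small in most. In genes with a mean of at least 50 counts, the median NMD share was 1.55 ± 0.036% (SD, n = 4) in FC Ctrl and 2.37 ± 0.10% (SD, n = 4) in FC Upf3b-KO, and 1.89 ± 0.029% (SD, n = 4) in Cere Ctrl and 2.53 ± 0.076% (SD, n = 3) in Cere Upf3b-KO. The mean share was higher in Upf3b-KO in 2131 of 3371 genes (63.2%) in frontal cortex and in 1978 of 3256 (60.7%) in cerebellum. For retained-intron transcripts, another non-productive class, the corresponding numbers were 38.1% of 2616 and 31.4% of 2583 genes. The pooled share of retained-intron transcripts was 2.19 ± 0.018 in FC Ctrl and 2.20 ± 0.021% in FC Upf3b-KO (SD, n = 4 each, two-sided exact permutation test, p = 0.229), and 2.49 ± 0.026 (SD, n = 4) in Cere Ctrl and 2.27 ± 0.035% (SD, n = 3) in Cere Upf3b-KO (p = 0.0571 by the exact test). Counts on NMD transcripts were thus 5.01 times those on retained-intron transcripts in FC Ctrl and 5.34 times in FC Upf3b-KO (two-sided exact permutation test, p = 0.0286, n = 4 each), and 4.11 and 5.18 times in cerebellum (p = 0.0571 by the exact test, n = 4 and 3). A further class, protein_coding_CDS_not_defined, has no annotated coding sequence. Its pooled share was 1.42% in FC Ctrl and 1.49% in FC Upf3b-KO (p = 0.0286 by the exact test). In cerebellum it was 1.36% in Ctrl and 1.30% in Upf3b-KO (p = 0.0571 by the exact test).

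Single NMD transcripts were then tested for their level, with edgeR's quasi-likelihood test over all transcripts of a region and calls at an adjusted p under 0.01 and over 2-fold. In frontal cortex 75 of 2502 NMD transcripts were higher in Upf3b-KO (3%, against 2.76% of all tested transcripts) and 7 were lower (0.28%, against 0.463%). In cerebellum 86 of 2774 were higher (3.1%, against 3.45%) and 15 lower (0.541%, against 1.31%). The count of strongly raised NMD transcripts was therefore near the background of all transcripts. Their typical change was not: in frontal cortex NMD transcripts had a median log2 change of 0.28, and in cerebellum one of 0.24, where protein_coding transcripts had medians of 0.01 and 0.04 and retained-intron transcripts −0.08 and −0.27. NMD transcripts were higher in 68.3% of cases in frontal cortex and 62.5% in cerebellum, where 51.3 and 50.6% of all tested transcripts were.

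Of the 2271 NMD transcripts tested in both regions, the frontal cortex list of calls up held 64 and the cerebellar one 80, with 25 on both lists, which is 39.1% and 31.2% of them. The overlap over all tested transcripts was not counted, so these percentages are a description only. The 5 with the smallest adjusted p in both regions were those of Brd2, Gabra2, Snrpa1, Tmem183a and Hnrnph3. The Brd2 transcript, from the gene of a bromodomain protein that reads acetylated histones, was at 29.3, 30.7, 33.5 and 32.7 CPM in FC Ctrl and 107, 92.7, 108 and 98.6 in FC Upf3b-KO. In cerebellum it was at 34.3, 31.6, 33.2 and 36.4 CPM in Ctrl and 107, 101 and 110 in Upf3b-KO. The groups did not overlap, and the log2 fold changes were 1.62 (SE 0.063) and 1.65 (SE 0.054), with Benjamini-Hochberg adjusted p of 1.63e-06 and 1.95e-06 by edgeR's quasi-likelihood method. The NMD transcript of Gabra2 (ENSMUST00000198625), the α2 subunit of the GABA-A receptor, rose in frontal cortex from 38.9 ± 3.0 CPM in Ctrl to 110.8 ± 1.1 in Upf3b-KO (SD, n = 4 each). In cerebellum the NMD transcript of Gabra2 rose from 31.2 ± 0.95 CPM (SD, n = 4) to 93.5 ± 3.6 (SD, n = 3). Its log2 fold changes were 1.45 (SE 0.053) and 1.58 (SE 0.039), with adjusted p of 1.28e-06 and 5.55e-07 by edgeR. Within the gene, however, Gabra2 contributed −0.0023 points to the pooled share of frontal cortex and 0.0352 through its weight. In frontal cortex its NMD transcript thus rose with the gene as a whole, and the split for cerebellum is not given here.

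Because a transcript also rises when its gene does, the NMD share of each gene was tested directly. Counts were summed per gene and transcript type, and each sum was compared with the rest of its gene (diffSpliceDGE of edgeR, with the type in the place of the exon), so that the value is the log2 change of the share relative to the gene, and calls needed an adjusted p under 0.01 and over 1.5-fold. In frontal cortex 51 of 1991 genes had a higher NMD share in Upf3b-KO (2.56%, against 0.671% over all gene and type sums) and 4 a lower one (0.201%, against 0.226%). In cerebellum 53 of 2161 had a higher share (2.45%, against 0.509%) and 9 a lower one (0.416%, against 0.339%). Of the 98 sums of any type called up in frontal cortex 51 were NMD sums, and of the 81 in cerebellum 53 were. Protein_coding sums were called up 10 times of 6308 and 6 times of 6744, and retained-intron sums 17 times of 4212 and 6 times of 4664. Sums of the type protein_coding_CDS_not_defined were called up 20 times of 2032 (0.984%) and 16 times of 2270 (0.705%). Protein_coding transcripts held 85.4% of the pooled counts in FC Ctrl and 85.9% in Cere Ctrl. A sum that holds most of its gene can hardly rise 1.5-fold relative to it. This limits the calls of protein_coding sums and lowers the percentage over all sums. The median log2 change was 0.17 for NMD sums in both regions, 0.00 for protein_coding sums, and −0.09 and −0.24 for retained-intron sums.

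**Figure D2:**
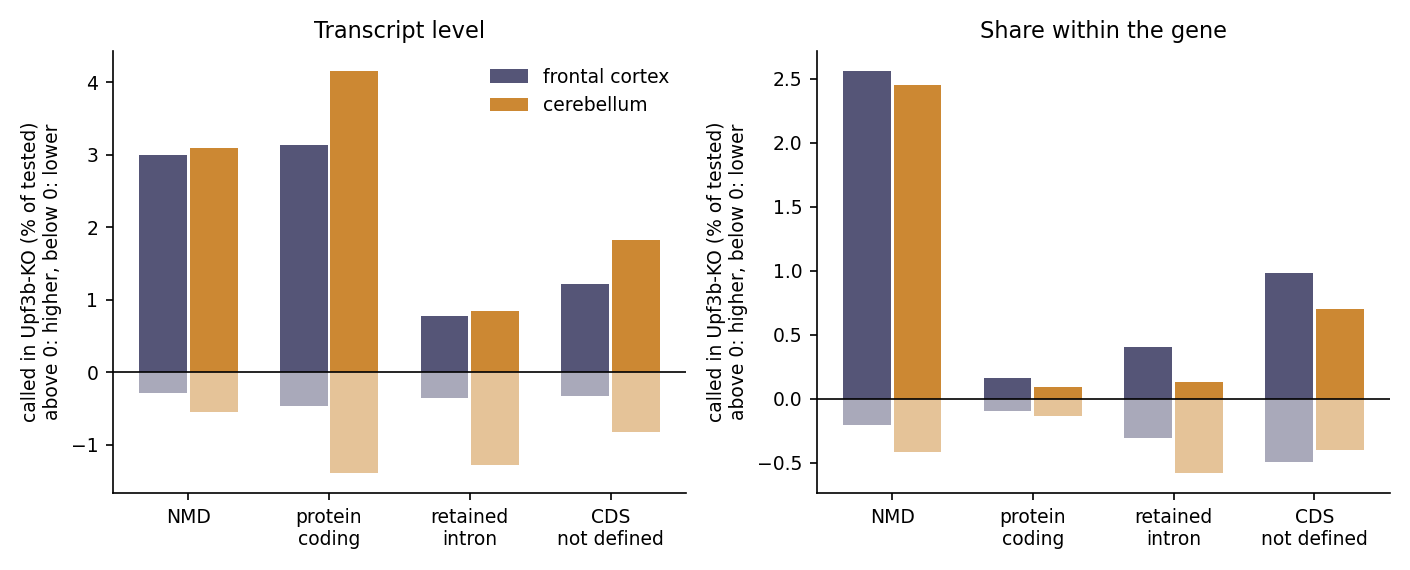
Percent of tested transcripts (left) and of tested gene and type sums (right) called in Upf3b-KO, by annotated type and region, with calls up above 0 and calls down below 0. On the left, 3% of NMD and 3.14% of protein_coding transcripts are called up in frontal cortex, and 3.1 and 4.16% in cerebellum. On the right, 2.56% of NMD and 0.159% of protein_coding sums are called up in frontal cortex, and 2.45 and 0.089% in cerebellum. Protein_coding sums hold most counts of their genes and can hardly rise 1.5-fold relative to them. Sums of the type without a defined CDS are called up at 0.984 and 0.705%.

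Whether the same genes shifted in frontal cortex and cerebellum was asked over the 1837 genes whose NMD share was tested in both. Of these, 50 had a called rise in frontal cortex and 47 in cerebellum, and 23 genes had it in both regions, which is 46.0% of the frontal cortex list and 48.9% of the cerebellar one. None was called in opposite directions. Of the 50 called up in frontal cortex, 48 had a higher share in Upf3b-KO cerebellum as well, with a median log2 change of 1.22 there. Of the 47 with a called rise in cerebellum, 45 had a higher share in Upf3b-KO frontal cortex, with a median of 0.99. Over all 1837 genes, 65.2% were higher in cerebellum and 65.3% in frontal cortex, with medians of 0.17 in each. The 23 shared genes were Srsf3, Tra2b, Hnrnpl, Hnrnpk, Hnrnph3, Rbm39, Luc7l, Snrpa1, Brd2, Sod2, Sec11c, Smc6, Sat1, Hpf1, Camta2, Chpt1, Epb41l3, Tmf1, Stoml1, Kbtbd11, Tmem183a, Arb2a and Mettl23. The main NMD transcript of these genes differed from the main protein_coding one by an included exon that holds the stop in 11, a skipped exon in 6, an included exon with a later stop in 2, another splice site, start or end in 3, and a junction after the usual stop in 1 (Kbtbd11). Their stop codons lay 152 to 3204 nt, with a median of 609 nt, before the last exon junction.

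The shared genes that encode proteins of splicing or RNA processing are described first, a grouping made after the calls were seen. Srsf3, an SR splicing factor, had 8.98, 8.43, 11.5 and 7.94% of its counts on NMD transcripts in FC Ctrl and 17.997, 17.4, 23.98 and 17.8% in FC Upf3b-KO. In cerebellum its share was 10.8, 11.7, 9.93 and 12.2% in Ctrl and 19.6, 20.9 and 20.7% in Upf3b-KO. The groups did not overlap in either region, and the log2 changes relative to the gene were 1.06 (SE 0.10) and 0.87 (SE 0.053), with adjusted p of 6.32e-07 and 3.805e-09 by edgeR. Tra2b, a splicing activator related to the SR proteins, had 6.21, 3.55, 8.35 and 5.27% in FC Ctrl and 9.70, 12.1, 12.0 and 12.6% in FC Upf3b-KO. In Cere Ctrl it had 5.23, 4.84, 4.63 and 3.03%, and in Cere Upf3b-KO 10.1, 12.4 and 10.6%. Again no Ctrl library reached the lowest Upf3b-KO library, and the changes were 0.98 (SE 0.18) and 1.31 (SE 0.16), with adjusted p of 0.000983 and 1.58e-05 by edgeR.

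Of the 3 hnRNP genes called, Hnrnph3 had the widest gap in percentage points, though not the largest log2 change. Its NMD share was 13.8, 17.5, 22.2 and 20.6% in FC Ctrl and 45.2, 40.2, 48.5 and 44.6% in FC Upf3b-KO. It was 22.5, 17.4, 21.0 and 18.9% in Cere Ctrl and 51.7, 42.4 and 47.3% in Cere Upf3b-KO, so that close to every second count of the gene was on the exon-skipped isoform. The changes were 1.28 (SE 0.12) and 1.24 (SE 0.10), with adjusted p of 3.09e-07 and 3.59e-07 by edgeR. Hnrnpl, which binds CA-rich RNA, rose from 1.99 ± 1.1 to 5.19 ± 0.86% (SD, n = 4 each) in frontal cortex and from 2.13 ± 0.58 (SD, n = 4) to 5.62 ± 1.5% (SD, n = 3) in cerebellum, with adjusted p of 0.00349 and 0.000808 by edgeR. Hnrnpk, which binds C-rich RNA, rose from 0.335 ± 0.10 to 0.919 ± 0.11% (SD, n = 4 each) and from 0.462 ± 0.064 (SD, n = 4) to 1.29 ± 0.33% (SD, n = 3), with adjusted p of 0.00293 and 0.00151 by edgeR. The fold changes of these 3 genes were alike although their shares differed widely, with log2 changes of 1.24 to 1.48 in both regions.

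Rbm39, a splicing coactivator, had 5.97, 6.63, 6.11 and 5.37% of its counts on NMD transcripts in FC Ctrl and 11.3, 16.6, 16.02 and 13.1% in FC Upf3b-KO. In cerebellum it had 7.79, 6.80, 6.603 and 8.67% in Ctrl and 19.5, 16.2 and 17.2% in Upf3b-KO. These are changes of 1.246 (SE 0.10) and 1.24 (SE 0.089), with adjusted p of 5.71e-08 and 4.34e-08 by edgeR, and no library overlapped. Luc7l, a relative of a yeast U1 snRNP protein, rose from 2.25 ± 0.40 to 5.40 ± 0.29% (SD, n = 4 each) in frontal cortex and from 2.29 ± 0.43 (SD, n = 4) to 5.39 ± 1.0% (SD, n = 3) in cerebellum, with adjusted p of 0.00153 and 0.00707 by edgeR. Snrpa1, a protein of the U2 snRNP, had the highest shares. They were 34.3, 31.0, 29.4 and 29.1% in FC Ctrl and 51.0, 53.7, 52.9 and 52.6% in FC Upf3b-KO, and 33.6, 35.4, 32.6 and 31.6% in Cere Ctrl and 61.8, 69.7 and 62.3% in Cere Upf3b-KO. Most Snrpa1 counts were thus on its NMD isoform in every Upf3b-KO library and in no Ctrl library, with changes of 0.76 (SE 0.082) and 0.95 (SE 0.076) and adjusted p of 6.48e-06 and 1.83e-07 by edgeR.

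**Figure D3:**
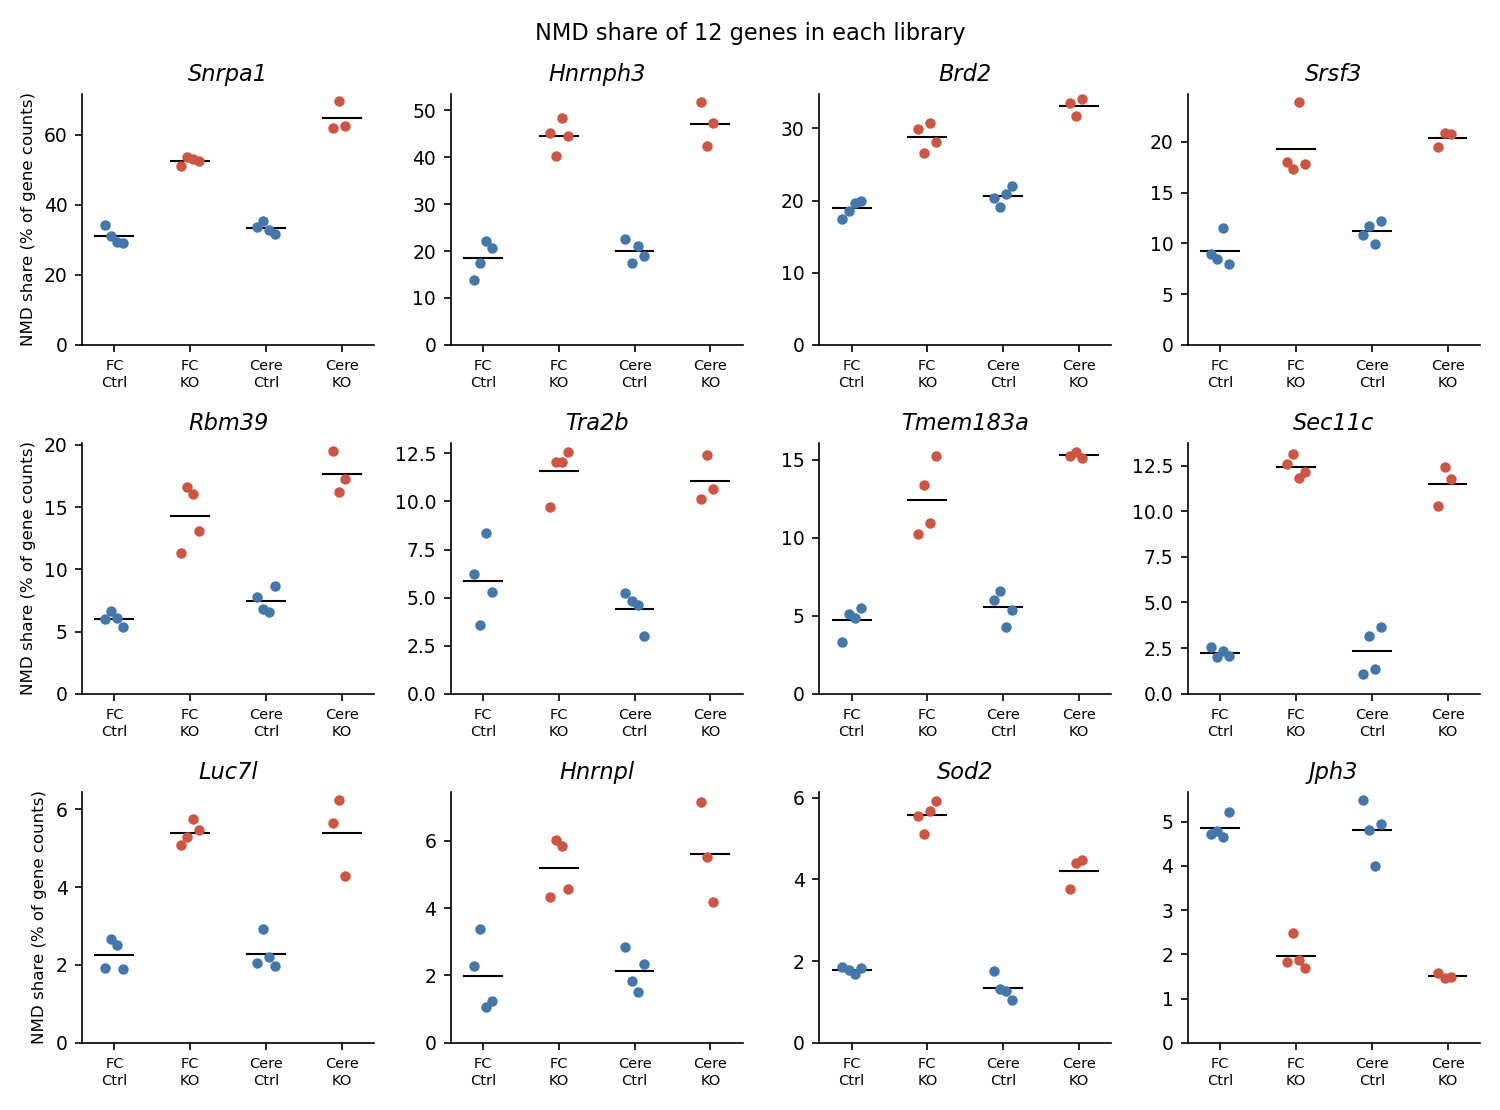
NMD share (y axis, percent of the gene's counts, from 0 with its own scale in each panel) of 12 genes called in both regions, in each library of the 4 groups (x axis, KO for Upf3b-KO). Points are libraries and lines are means (n = 4, and 3 for Cere KO). In 11 genes every Upf3b-KO library lies above every Ctrl library, and in Jph3 every one lies below.

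The other shared genes have varied functions. Brd2 had 17.4, 18.6, 19.6 and 19.98% of its counts on NMD transcripts in FC Ctrl and 29.98, 26.6, 30.8 and 28.1% in FC Upf3b-KO. In Cere Ctrl the values were 20.3, 19.2, 20.9 and 22.04%, and in Cere Upf3b-KO 33.6, 31.7 and 34.01%. The groups did not overlap, with changes of 0.61 (SE 0.063) and 0.69 (SE 0.041) and adjusted p of 1.60e-06 and 3.69e-09 by edgeR, and here the gene as a whole was also higher, at 169 CPM in FC Ctrl, 357 in FC Upf3b-KO, 167 in Cere Ctrl and 326 in Cere Upf3b-KO. Tmem183a rose from 4.69 ± 0.96 to 12.4 ± 2.3% (SD, n = 4 each) and from 5.56 ± 0.97 (SD, n = 4) to 15.3 ± 0.19% (SD, n = 3), with adjusted p of 6.32e-07 and 3.37e-07 by edgeR. Sod2, the mitochondrial manganese superoxide dismutase, had 1.84, 1.79, 1.69 and 1.82% in FC Ctrl and 5.57, 5.12, 5.67 and 5.91% in FC Upf3b-KO. It had 1.75, 1.32, 1.26 and 1.04% in Cere Ctrl and 3.75, 4.41 and 4.48% in Cere Upf3b-KO. Both are changes of about the same size, 1.64 (SE 0.16) and 1.65 (SE 0.20), with adjusted p of 4.50e-07 and 3.16e-05 by edgeR.

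Sec11c, a catalytic subunit of the signal peptidase, rose from 2.24 ± 0.27 to 12.4 ± 0.58% (SD, n = 4 each) in frontal cortex and from 2.32 ± 1.3 (SD, n = 4) to 11.5 ± 1.1% (SD, n = 3) in cerebellum. Stoml1, a stomatin-like protein, rose from 9.51 ± 3.8 to 22.6 ± 2.1% (SD, n = 4 each) and from 11.7 ± 3.0 (SD, n = 4) to 29.0 ± 4.8% (SD, n = 3). The largest adjusted p of these values was 0.000628 by edgeR. The remaining shared genes included Smc6, of the SMC5/6 complex that acts in DNA repair, Sat1, which acetylates polyamines for their breakdown, Hpf1, a partner of PARP enzymes, Chpt1, of phosphatidylcholine synthesis, and Epb41l3, which ties membrane proteins to the cytoskeleton. Chpt1 had the widest gap in frontal cortex of these, 21.4 ± 4.0 against 51.1 ± 7.6% (SD, n = 4 each), with 17.4 ± 5.4 (SD, n = 4) against 35.7 ± 2.1% (SD, n = 3) in cerebellum. Smc6 rose from 12.2 ± 2.6 to 24.3 ± 2.1% (SD, n = 4 each) and from 8.48 ± 3.3 (SD, n = 4) to 23.6 ± 2.4% (SD, n = 3). For Mettl23, a methyltransferase, the share went from 0.633 ± 0.33 to 11.7 ± 1.2% (SD, n = 4 each) and from 2.14 ± 0.96 (SD, n = 4) to 13.4 ± 2.4% (SD, n = 3), on 1.51 to 13.6 NMD counts per Ctrl library and 34.4 to 69.1 per deep Upf3b-KO library. The adjusted p of Chpt1, Smc6 and Mettl23 were at most 0.00242 by edgeR in either region.

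Tmf1, Kbtbd11 and Arb2a had 0 NMD counts in at least 1 Ctrl library of each region. Tmf1, a Golgi protein, had 0 NMD counts in all 8 Ctrl libraries. Its share was 6.18, 7.99, 15.1 and 10.3% in FC Upf3b-KO and 4.05, 3.46 and 6.59% in Cere Upf3b-KO, at least 242-fold and 124-fold higher than a Ctrl share of 3 counts over the group would be. Kbtbd11, a kelch and BTB domain protein, had 0.302, 0.463, 0 and 0.829% in FC Ctrl and 38.2, 36.8, 41.1 and 38.2% in FC Upf3b-KO. In cerebellum it had 0 NMD counts in every Ctrl library and 59.2, 51.2 and 46.6% in Upf3b-KO, at least 1839-fold more, while the gene as a whole was lower, 84.0 against 37.7 CPM. Arb2a was at 0 to 0.935% in FC Ctrl and at 1.49, 11.1, 13.03 and 14.01% in FC Upf3b-KO, so that 1 Upf3b-KO library lay just above Ctrl, and at 0 to 1.15% in Cere Ctrl and 14.1, 8.30 and 9.32% in Cere Upf3b-KO. The reads behind these values were divided among isoforms by the authors' counting model, so a value of 0 says only that the model gave the isoform no reads.

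**Figure D4:**
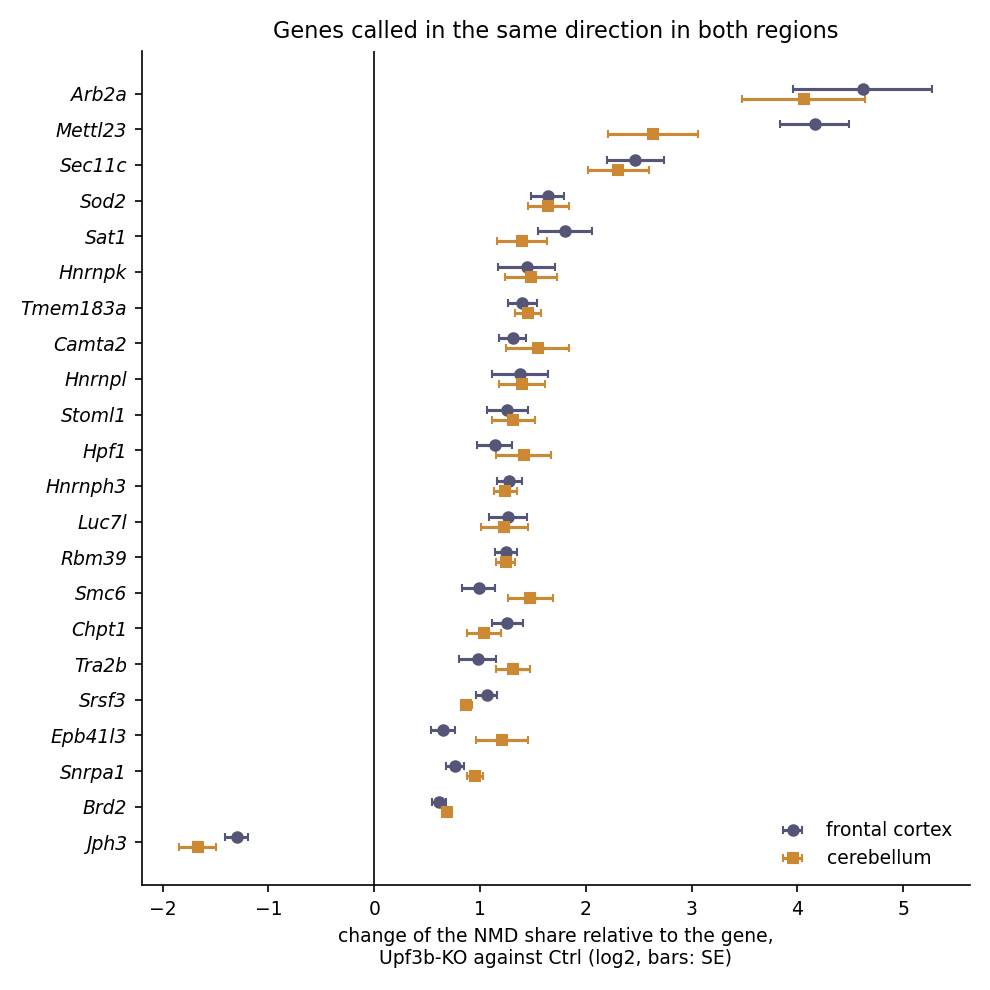
Change of the NMD share relative to the gene, Upf3b-KO against Ctrl (x axis, log2, bars are SE calculated from the F statistic), for genes called in the same direction in frontal cortex (circles) and cerebellum (squares). Kbtbd11 and Tmf1, whose NMD transcripts were at 0 in all Ctrl libraries of at least 1 region, are not drawn. The regions lie close together in most genes, as in Sod2 at 1.64 and 1.65, and Jph3 is the gene below 0.

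The level of the NMD transcripts, in CPM, was higher in every Upf3b-KO library than in every Ctrl library for all 23 genes in both regions, which the calls make likely, where it was so for 19.1% of the 1837 genes in frontal cortex and 24.3% in cerebellum. The level of the protein_coding transcripts was higher in every Upf3b-KO library for 6 of the 23 in frontal cortex and 7 in cerebellum, lower in every one for 9 and 14, and overlapped in the others. Over the 1837 genes, 27.6 and 30.4% were higher without overlap in this way and 11.3 and 26.1% lower. Because a higher NMD share was what selected the 23 genes and favours a lower protein_coding level, these counts are a description only. Snrpa1 is a case in which the productive level overlapped between the genotypes in frontal cortex, with NMD transcripts at 7.51 ± 0.58 against 18.5 ± 1.5 CPM and protein_coding transcripts at 14.8 ± 0.89 against 14.5 ± 1.1 CPM (SD, n = 4 each). For Hnrnph3 the NMD level went from 7.38 ± 1.3 to 20.9 ± 2.3 CPM and the protein_coding level from 31.5 ± 2.6 to 25.4 ± 1.0 CPM (SD, n = 4 each). In Srsf3 the protein_coding level was lower by a wider gap, 190.6 ± 3.2 against 148.8 ± 8.3 CPM in frontal cortex (SD, n = 4 each) and 270.2 ± 5.4 (SD, n = 4) against 167.0 ± 2.1 CPM (SD, n = 3) in cerebellum. For Brd2 both kinds of transcript were higher, the NMD ones at 31.9 ± 1.8 against 103.2 ± 7.4 CPM and the protein_coding ones at 135.0 ± 3.1 against 251.7 ± 4.9 CPM in frontal cortex (SD, n = 4 each).

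**Figure D5:**
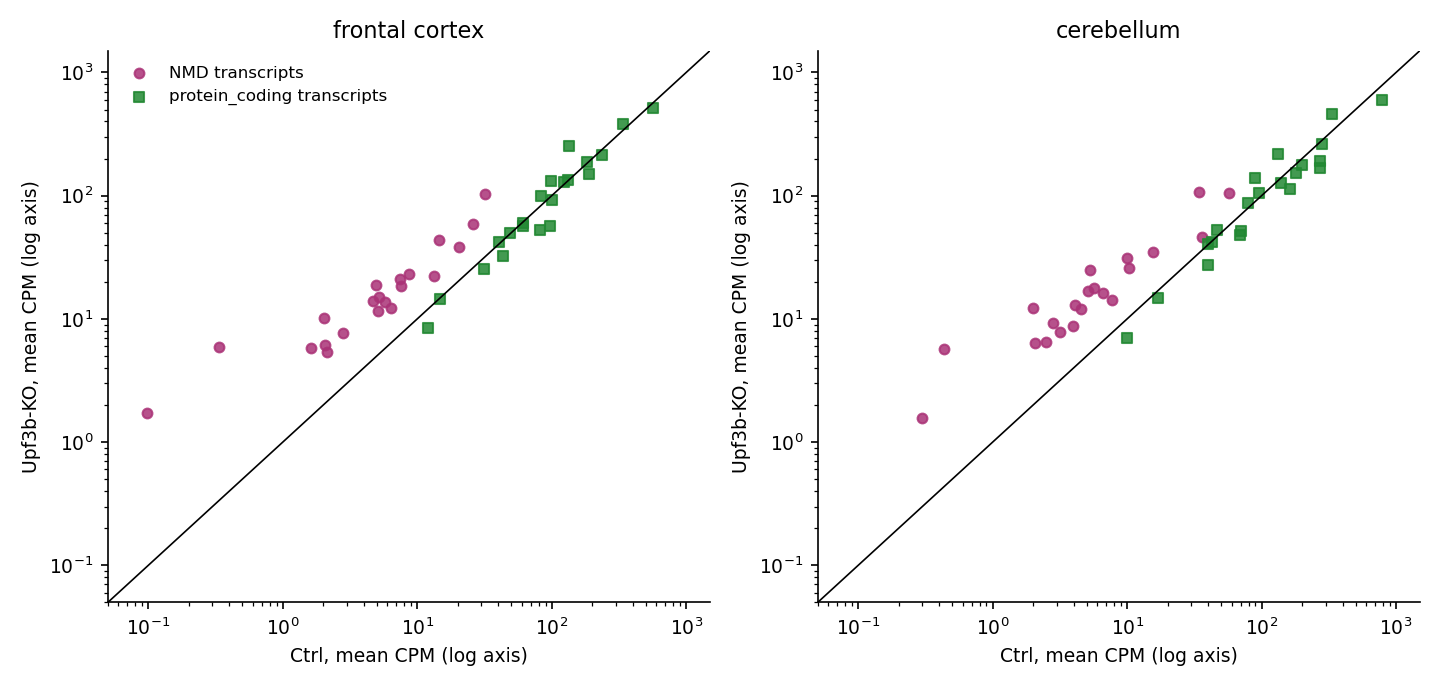
Mean level in Ctrl (x axis) and Upf3b-KO (y axis), in CPM on log axes, of the NMD transcripts (circles) and protein_coding transcripts (squares) of 21 of the 23 genes called up in both regions, without Kbtbd11 and Tmf1, in frontal cortex and cerebellum. The line marks equal levels. All circles lie above the line, and squares lie on both sides of it.

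Jph3, which encodes a junctophilin that holds the endoplasmic reticulum to the plasma membrane of neurons, was the only gene whose NMD share was called lower in both regions. Its share was 4.73, 4.79, 4.65 and 5.23% in FC Ctrl and 1.84, 2.49, 1.88 and 1.69% in FC Upf3b-KO. In cerebellum it was 5.48, 4.81, 3.997 and 4.95% in Ctrl and 1.59, 1.46 and 1.496% in Upf3b-KO. The groups did not overlap, and the changes were −1.30 (SE 0.11) and −1.67 (SE 0.17), with adjusted p of 1.64e-06 and 5.40e-05 by edgeR. The annotated NMD transcript of Jph3 (ENSMUST00000167439, chr8:122457306-122521015, plus strand) uses the same stop codon as the main protein_coding transcript and has 1 junction 127 nt after it.

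Other genes were called in 1 region only. Khdrbs3, a STAR-family RNA-binding protein, had 24.4, 19.5, 18.8 and 19.0% of its counts on NMD transcripts in FC Ctrl and 45.3, 44.2, 45.6 and 42.3% in FC Upf3b-KO (change 1.11, SE 0.10, adjusted p 6.12e-06 by edgeR). In cerebellum, where the gene was low at 2.67 CPM in Ctrl and 8.08 in Upf3b-KO, its share was 4.08 ± 3.7 (SD, n = 4) and 17.2 ± 5.4% (SD, n = 3) and was not called (adjusted p 0.116 by edgeR). Zgpat, a zinc finger protein, rose from 33.3 ± 5.5 to 50.6 ± 3.6% (SD, n = 4 each) in frontal cortex (adjusted p 0.00390 by edgeR) and was at 51.1 ± 2.5 (SD, n = 4) and 61.8 ± 6.5% (SD, n = 3) in cerebellum (adjusted p 0.325). Nt5c2, a purine nucleotidase, rose in cerebellum from 23.7 ± 4.7 (SD, n = 4) to 43.1 ± 3.2% (SD, n = 3, adjusted p 3.70e-05 by edgeR). Its share in frontal cortex was 30.9 ± 1.8 against 42.0 ± 3.5% (SD, n = 4 each), which passed the p but at a log2 change of 0.44 not the 1.5-fold limit. The difference between regions was not called for any of these 3 genes, with adjusted p of 0.892, 1 and 0.169 for the interaction in edgeR.

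Calls of a lower share in 1 region alone came from genes of high and of low counts. Slc6a8, the creatine transporter, had 32.2, 26.1, 30.3 and 19.0% in Cere Ctrl and 7.14, 12.8 and 14.3% in Cere Upf3b-KO (change −1.23, SE 0.24, adjusted p 0.00569 by edgeR), and 27.2 ± 8.8 against 30.7 ± 4.3% (SD, n = 4 each) in frontal cortex. Aph1b, a subunit of γ-secretase, had 0.706 to 5.07% in FC Ctrl and 0 NMD counts in FC Upf3b-KO, at least 43.8-fold less, and 3.60 ± 1.5 (SD, n = 4) against 0.483 ± 0.43% (SD, n = 3) in cerebellum, where the groups did not overlap either but the gene was not called (adjusted p 0.0255 by edgeR). Gas2l2, which links actin and microtubules, had all of its 32 to 38 counts per library on the NMD transcript in FC Ctrl and none in FC Upf3b-KO. In cerebellum all of its counts were on the NMD transcript in both genotypes, 5 to 18 per Ctrl library and 13 to 31 per deep Upf3b-KO library. Serpinb6b, a serpin, and Map3k8, a kinase of inflammatory signalling, had 8 to 20 and 7 to 29 NMD counts per library in Cere Ctrl and 0 in each deep Cere Upf3b-KO library, which is at least 12.7-fold and 9.10-fold less relative to the gene. In frontal cortex Serpinb6b was at 37.5 ± 27 against 4.53 ± 9.1% (SD, n = 4 each), which overlapped and was not called (adjusted p 0.258 by edgeR). Map3k8 was at 4.36 ± 8.7 against 17.3 ± 25% there (SD, n = 4 each), which overlapped and was left untested by the filter on low counts. The reverse was seen for the zinc finger gene Zfp184, with 0 NMD counts in every Cere Ctrl library and 12 to 20 in each deep Cere Upf3b-KO library (at least 20.4-fold). Its frontal cortex shares were 19.8 ± 23 and 29.3 ± 38% (SD, n = 4 each), which overlapped.

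The difference between the regions itself was tested as the region by genotype interaction over the 15 deep libraries, without a term for the mouse. It was called for 18 of 2578 NMD sums (13 positive, that is more toward higher in cerebellum, and 5 negative), against 0.205% over all gene and type sums. Among genes with protein_coding counts in both regions and no overlap between the genotypes in at least 1 region, the 3 positive ones with the lowest adjusted p were Plcb4, Osbpl9 and Arhgef28. Plcb4, a phospholipase C that is abundant in Purkinje cells, had 1.15, 1.41, 2.18 and 1.75% in FC Ctrl and 0 NMD counts in FC Upf3b-KO (at least 39.8-fold less), whereas in cerebellum it had 7.58 ± 0.49 (SD, n = 4) and 6.88 ± 2.2% (SD, n = 3), with an adjusted p of 3.64e-06 for the interaction in edgeR. Osbpl9, a lipid transfer protein, had 0 NMD counts in Cere Ctrl and 8.48, 8.16 and 9.75% in Cere Upf3b-KO (at least 396-fold more). In frontal cortex it had 0, 6.17, 13.4 and 1.76% in Ctrl and 4.01, 7.04, 3.44 and 1.67% in Upf3b-KO, which overlapped (interaction adjusted p 3.43e-05 by edgeR). Arhgef28 was at 24.2 ± 5.3 and 22.1 ± 5.2% (SD, n = 4 each) in frontal cortex, and at 0, 0, 5.26 and 0% in Cere Ctrl and 22.5, 11.5 and 21.7% in Cere Upf3b-KO (interaction adjusted p 0.000147 by edgeR), on a gene that was itself at 5.26 CPM in Cere Ctrl and 19.9 in Cere Upf3b-KO.

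Among the negative ones, Ttc3, a ubiquitin ligase, had a share of 4.54, 3.70, 4.09 and 3.81% in FC Ctrl and 5.35, 5.25, 5.25 and 7.08% in FC Upf3b-KO, and 11.7 ± 1.1 (SD, n = 4) against 10.2 ± 0.94% (SD, n = 3) in cerebellum. Ttc3 was far more abundant than the other genes named for the interaction, at 1152 CPM in FC Ctrl, and the interaction was −0.70 (SE 0.10, adjusted p 1.38e-05 by edgeR). Peg3, an imprinted zinc finger gene, was at 0 to 0.0225% in FC Ctrl and 0.0755 to 1.03% in FC Upf3b-KO, and at 2.67 ± 0.80 (SD, n = 4) against 1.98 ± 0.44% (SD, n = 3) in cerebellum. Pld5, of the phospholipase D family, had 0 NMD counts among 75 to 104 counts per library in FC Ctrl and 29.5, 13.3, 16.8 and 34.9% in FC Upf3b-KO (at least 30.6-fold more, adjusted p 0.000151 by edgeR). It had 16.3 ± 5.5 (SD, n = 4) and 19.4 ± 7.5% (SD, n = 3) in cerebellum. The regions thus differed in few genes by this test, but a gene that is not called in it is not shown to respond alike.

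Lists of genes known for NMD or for their own poison exons were then read against the same calls, and those called in 1 region alone (Srsf4, Srsf2, U2af1, Rps12 and Scn2a) are named because of their values. Of 14 SR protein genes 10 had a tested NMD share, and 2 of them rose in frontal cortex (Srsf3, Tra2b). Over all NMD shares tested, 2.56% were called up in frontal cortex and 2.45% in cerebellum, and the counts of all these lists are to be read against that. In cerebellum 3 rose (Srsf3, Srsf4, Tra2b) and 1 fell (Srsf2). The share of Srsf4 was 4.95 ± 0.72 (SD, n = 4) against 12.3 ± 1.1% (SD, n = 3) in cerebellum (adjusted p 0.00494 by edgeR) and 6.45 ± 1.7 against 11.5 ± 0.95% (SD, n = 4 each) in frontal cortex (adjusted p 0.0737). Srsf2 had 3.26 ± 0.81 (SD, n = 4) and 0.208 ± 0.013% (SD, n = 3) in cerebellum (change −3.91, SE 0.33, adjusted p 3.77e-07 by edgeR) and 5.86 ± 1.8 against 1.48 ± 1.5% (SD, n = 4 each) in frontal cortex (adjusted p 0.0916). The median change of the SR genes was 0.86 in frontal cortex and 0.78 in cerebellum, with 9 and 8 of 10 higher, beside medians of 0.17 over all NMD shares tested in a region. For hnRNP, PTB and Rbfox genes 3 of 11 and 3 of 12 were up, the 3 described above, with medians of 0.66 and 0.05.

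Of the other RNA-binding proteins and splicing kinases, 2 of 21 were up in frontal cortex (Rbm39, Luc7l) and 3 of 23 in cerebellum, with U2af1, which recognises the 3′ splice site, as the third, beside 2.56 and 2.45% of all NMD shares tested. The share of U2af1 was 8.75 ± 2.9 (SD, n = 4) against 18.4 ± 2.3% (SD, n = 3) in cerebellum (adjusted p 0.00899 by edgeR) and 9.58 ± 5.9 against 20.7 ± 4.3% (SD, n = 4 each) in frontal cortex (adjusted p 0.0370). Medians of this list were 0.87 and 0.60, with 17 of 21 and 18 of 23 higher. Of 9 tested ribosomal protein genes 1 was up in frontal cortex (Rps12, from 2.14 ± 0.99 to 7.396 ± 1.4%, SD, n = 4 each, adjusted p 0.00995 by edgeR) and 0 in cerebellum. There the share of Rps12 was 2.47 ± 2.1 (SD, n = 4) against 11.6 ± 5.2% (SD, n = 3). The groups did not overlap, but the gene was not called (adjusted p 0.0739 by edgeR). Of synaptic and ion channel genes, 0 of 7 were up in frontal cortex and 1 of 9 in cerebellum (Scn2a, a sodium channel, from 0.0210 ± 0.035, SD, n = 4, to 0.356 ± 0.089%, SD, n = 3, adjusted p 0.00836 by edgeR). Scn2a had no tested NMD share in frontal cortex. Only 1 gene of the NMD factors (Smg5) and 1 of the exon junction complex (Magohb) could be tested, and neither was called in either region, with adjusted p of 0.376 to 1 by edgeR.

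The isoforms were grouped by the splicing event that gives them their stop codon. Of NMD transcripts whose stop lies inside an included exon, 23 of 541 were called up in frontal cortex and 24 of 598 in cerebellum (4.25 and 4.01%, against 3 and 3.1% of all tested NMD transcripts). Their median log2 fold changes were 0.44 and 0.41, and 76.0 and 67.4% were higher in Upf3b-KO. Transcripts that skip an exon had medians of 0.16 and 0.15, and 17 of 666 and 16 of 754 were called up. For transcripts with a retained intron as the event the medians were 0.11 and −0.13, with 0 of 63 and 0 of 71 called up. Those that keep the usual stop and have a junction in the 3′ UTR had medians of 0.17 and 0.23, with 5 of 140 and 9 of 153 called up. These differences between classes were not tested.

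Calls were also counted by the distance from the stop codon to the last junction, with no test between the classes. The median distance was 561 nt for the 75 transcripts called up in frontal cortex and 475 nt for all tested there, but 402 against 463 nt in cerebellum. Of transcripts with a distance under 100 nt, 2.13 and 2.32% were called up in frontal cortex and cerebellum, compared with 2.85 and 3.46% from 100 to under 500 nt and 3.31 and 2.95% at 500 nt or more. With 1 junction after the stop, 1.49% were called up in frontal cortex and 3.91% in cerebellum. With 2 junctions it was 3.82 and 3.85%, with 3 or 4 junctions 2.31 and 2.53%, and with 5 or more junctions 3.804 and 2.79%. NMD transcripts were scarce in general: 330 of the 7199 reached 10 CPM in FC Ctrl and 355 in Cere Ctrl, and the median of those with any count in Ctrl was 0.279 and 0.315 CPM.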

How the data were processed

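Both regions were sequenced from rRNA-depleted total RNA with SMART-Seq libraries. Per the labels and methods, the authors aligned reads with STAR 2.5.2b to GRCm39 and estimated transcript levels with RSEM, and the deposited values are expected counts for each Ensembl transcript and library (names and versions from the submitters' processing notes). A strand setting was not given in the sources used here, so counts of overlapping and antisense genes are uncertain, and the division of reads among isoforms is the model's estimate.

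Transcript types, stop codons and exons came from GENCODE vM39, another release than the authors', which matched 141102 of 142435 transcripts. NMD shares used the expected counts as deposited. Tests used counts rounded to whole numbers, edgeR 4.0.16 (R 4.3.3) with TMM scaling, glmQLFit, glmQLFTest or diffSpliceDGE, a filter on low counts (filterByExpr, minimum 10 and total 15) and Benjamini-Hochberg adjustment over all features of a region. Of 16 libraries 15 were used, and no column was without a sample. Tests on data simulated from the real means recovered 200 of 200 changed features in each of 4 fits, with 1 to 7 false calls. The planted changes were larger than the fold limits of the calls, in features well above the filter, with a fixed dispersion. For the share, false calls within the changed genes were not counted. Recovery of smaller changes or of scarce transcripts was therefore not tested. The SE given with a log2 change was calculated from that change and the F statistic of its test. Alternatives used limma 3.58.1 and DESeq2 1.42.0. EBSeq, DEXSeq and IsoformSwitchAnalyzeR were not used here.

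The members and lists were chosen with earlier results of these data known. Genes were named by rule: the 12 called up in both regions with the smallest larger adjusted p, those called down in both, the 3 in each direction of the interaction with the smallest adjusted p, the 3 per direction and region with the largest difference among genes not called in the other region, the 5 transcripts called up in both regions with the smallest larger adjusted p, and list members called in both, all without overlap between genotypes (for the interaction, in at least 1 region). Lack of overlap, where it was a condition of naming, is no further result. The remaining genes called up in both regions are named to complete that count. A gene that the rule picked is not reported here. A share against 0 counts was bounded by 3 counts over the group. Between libraries of a group, variances were 2.17 to 2.61 times the Poisson value. The ratio was 2.17 to 2.66 in genes of low counts and 2.22 to 3.10 in genes of high counts. No pair stood apart from the others, which does not show that the libraries came from separate mice.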

Additional observations from a re-analysis of the deposited data

Results flagged for a closer look

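In 9 of 123 groups of 4 libraries, 1 library lay far from the others in the NMD share of a gene, and chance alone is expected to single out about 1 in 20 groups. In FC Ctrl these were Khdrbs3 at 24.4% in library 1, Peg3 at 0.0225% in library 3, where the others were at 0, and Map3k8 at 17.4% in library 4. In FC Upf3b-KO these were Nt5c2 at 47.2% in library 2, Srsf3 at 23.98% and Peg3 at 1.03% in library 3, and Ttc3 at 7.08% and Serpinb6b at 18.1% in library 4. In Cere Ctrl it was Arhgef28 at 5.26% in library 3.

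For 8 of the named genes, among the 18 NMD sums called in all, the change of the NMD share differed between cerebellum and frontal cortex in the interaction test of edgeR (log2, cerebellum minus frontal cortex). The difference was 11.61 for Osbpl9, 8.56 for Gas2l2, 7.76 for Plcb4, 6.83 for Kbtbd11 and 3.9997 for Arhgef28, and −7.28 for Pld5, −5.92 for Peg3 and −0.70 for Ttc3. Groups with no NMD counts enter the values of Osbpl9, Gas2l2, Plcb4, Kbtbd11 and Pld5, which therefore depend on the prior count of the fit and are no bounds. Peg3 in frontal cortex and Gas2l2 in cerebellum had no tested NMD share of their own.

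The left-out cerebellar Upf3b-KO library 1, with 64981 counts, had a pooled NMD share of 16.8%, above the 10.18 to 10.28% of the Cere Ctrl libraries and the 11.73 to 11.81% of the deep Cere Upf3b-KO libraries.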

How the results depend on the processing

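The difference in pooled share between Upf3b-KO and Ctrl kept its direction in each region under all alternatives tried, and those with held weights or without Lars2 and Mobp were chosen after seeing the data. Leaving out each replicate in turn gave 0.792 to 0.843 points in frontal cortex (exact permutation p = 0.0571, the smallest possible) and 1.51 to 1.55 in cerebellum. With the left-out library the cerebellar difference was 2.78 points (exact permutation p = 0.0286), and the transcript test called 23 in place of 86. Genes called up by NMD share, 51 in frontal cortex and 53 in cerebellum with 23 shared, became 125, 142 and 49 with limma, and 102, 99 and 36 with an adjusted p under 0.05 and no limit on the fold (36 in place of 18 for the interaction). Both regions shared 15 genes when the share had to differ by 5 points. In genes of nearly constant total there were 31 in cerebellum and 12 in both. NMD transcripts called up were 184 and 203 with DESeq2, and 223 and 264 at the looser threshold.

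The replicate numbers did not pair the samples (correlation of deviations −0.021 to 0.028, and 1 of 7 libraries matched its own number best). With the replicate block, 36 genes were called up in the frontal cortex, 24 in the cerebellum and 14 in both, and 18 and 9 transcripts. Leaving out 1 replicate gave 41 to 58 and 36 to 59 genes, 16 to 24 in both, and 12 to 19 interactions. Transcript calls ranged from 39 to 61 in frontal cortex (47 without Ctrl library 3, and 39, 46, 39 and 44 without Upf3b-KO libraries 1 to 4) and from 38 to 70 in cerebellum (44, 43 and 38 without Upf3b-KO libraries 2 to 4), which leaves fewer samples.

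Of 1153 values of named genes and transcripts under the alternatives, 1039 kept direction and call, 103 lost the call, 5 gained it and 6 changed sign. Hnrnpl in frontal cortex and Luc7l in cerebellum lost it most often, in 9 alternatives each. The changes of sign were in values that were not called: Osbpl9 in frontal cortex (0.28 with the block, −0.80 to 0.58 without single replicates), Plcb4 in cerebellum (−0.35 to 0.10), Arhgef28 in frontal cortex (−0.28 to 0.00685), Pld5 in cerebellum (−0.0345 to 0.53) and Zfp184 in frontal cortex (−0.89 to 1.78). Their causes were not tested. At these depths 3 counts are 0.0851 to 0.108 CPM, which limits genes such as Zfp184 and Map3k8.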
